A study of Mus musculus with 2 samples.

Results

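Non-mitotic granule progenitor nuclei, 353 of the 10033 nuclei past the filters and of 11803 in all, were examined in the mouse cerebellum at postnatal day 1. They were picked by their counts of unique molecular identifiers (UMIs), where 1 UMI stands for 1 captured transcript. A nucleus needed at least 1000 detected genes and at most 5% mitochondrial UMIs. It further needed at least 2 UMIs over Gli2, Fgfr4 and Sfrp1 together and at least 1 over Pax6 and Zic1, and it could hold at most 2 over the mitotic genes Mki67, Top2a and Kif11, at most 2 over the glial genes Slc1a3 and Ptprz1 and at most 1 over Gad1 and Gad2. The control library gave 274 of these nuclei and the library labelled conditional knockout (cKO) gave 79. The control animals were Cre-negative littermates, with Tox3f/f in the genotype field and Tox3f/f or Tox3f/+ in the library name, and the cKO animals were Nestin-cre;Tox3f/f. Tox3f marks a floxed allele of Tox3, and Nestin-cre recombines it in neural precursors and all their progeny, so Purkinje cells, interneurons and glia carry the recombined allele as well as granule cells. Each library pooled 12 cerebella, so a group was 1 library, no difference has a replicate check, and every interval below is a 95% interval that covers counting error only.

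Granule neuron progenitors arise from the rhombic lip, settle in the external germinal layer and divide there in response to Sonic hedgehog from Purkinje cells. Sonic hedgehog lifts the block that its receptor Ptch1 places on Smo at the primary cilium, and the Gli factors then carry the signal to the nucleus. Progenitors that leave the cell cycle express the adhesion molecule Cntn2 and the factor Neurod1, migrate inward and mature. Gli2 is a zinc finger activator of the Sonic hedgehog pathway, Fgfr4 is a receptor for fibroblast growth factors, Sfrp1 is a secreted Wnt inhibitor, and Pax6 and Zic1 mark the granule lineage.

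The genes that set these nuclei apart from all other nuclei in both libraries, those of the rule left out, are given as a description. Gm12082, seen in 31.4% of control but 3.80% of cKO nuclei, was 7.97-fold higher than in other control nuclei and 10.2-fold higher in cKO. Cyyr1 stood at 7.93-fold and 9.17-fold, and Mfap4, a microfibril-associated protein gene, at 6.56-fold and 9.86-fold. The replication genes Dtl and Mcm6 stood among them too, Mcm6 with a UMI in 35.8% of control and 31.6% of cKO nuclei, so the nuclei are non-mitotic by 3 mitotic genes and not by every gene of the cycle. No mitotic UMI was found in 65.0% of control nuclei (178 of 274, 59.0 to 70.6%) and in 65.8% of cKO nuclei (52 of 79, 54.3 to 76.1%). Ptch1, which the rule did not use, reached 418 CPM in control and 423 CPM in cKO, against 131 and 141 CPM in granule nuclei that lacked all 3 progenitor genes. CPM is a gene's UMIs over all UMIs of the nuclei in question, scaled to 1000000. By this gene alone the nuclei of both libraries matched the label, and other progenitor markers differed. Barhl1, Boc and Cxcr4 were called lower in cKO over all nuclei, and Gli1 and Zic2 were not called, with values further on. Atoh1, the master factor of the lineage, had 5 UMIs in control and 0 in cKO.

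The label did not hold for every nucleus. Purkinje cell markers (Calb1, Pcp2, Pcp4, Ppp1r17, Car8 and Skor2) summed to at least 4 UMIs in 8 of 274 control and 8 of 79 cKO nuclei, and markers of inhibitory interneurons (Pax2, Tfap2b, Slc32a1 and Slc6a5) did so in 6 and 9. The Purkinje-marked nuclei were deep, with medians of 6923.5 UMIs in control and 9251 in cKO, and the interneuron-marked ones less so, with 4205.5 and 3202. Together they held 8.36% of the UMIs in control but 34.2% in cKO. A rule built on Gli2 and few UMIs therefore admitted nuclei with markers of other cell types, and they weighed more in cKO. Results are given for all nuclei and, chosen after the data had been seen, without those with other markers, which left 260 control and 62 cKO nuclei. Whether the marked nuclei are other cells or droplets with a granule nucleus and another cell was not tested.

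**Figure D1:**
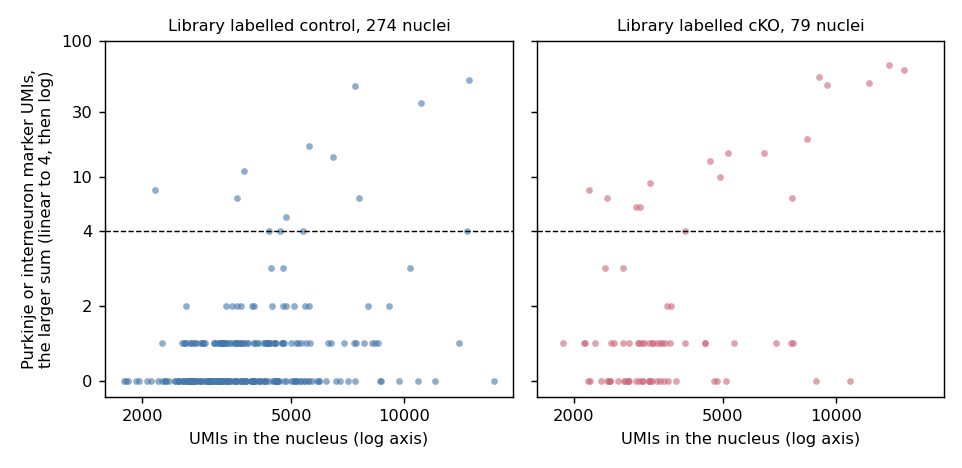
Each point is 1 non-mitotic progenitor nucleus, with its UMIs on a log axis and the larger of its Purkinje and interneuron marker sums, linear up to 4 and log above. The dashed line marks 4 UMIs, which 14 of 274 control and 17 of 79 cKO nuclei reached, and the nuclei with sums over 30 all hold more than 6000 UMIs.

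The libraries were of like depth over these nuclei. Median UMIs per nucleus were 3585 in control and 3202 in cKO, and the nuclei held 1152185 and 335424 UMIs in all. Without the nuclei with other markers, the medians were 3538.5 and 3124.5. Libraries shared 9 barcodes, of which 1 belonged to a progenitor nucleus of cKO. Xist UMIs occurred in 56.2% and 57.0% of the nuclei, and UMIs of Y-linked genes in 45.6% and 35.4%, so both pools held both sexes.

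The first comparison was the share of nuclei that met the rule, which is a description because the rule counts Gli2. In the control library the share was 7.18% (274 of 3816 nuclei, 6.38 to 8.05%). In the cKO library it was 1.27% (79 of 6217 nuclei, 1.01 to 1.58%), which was 5.65-fold lower (4.38 to 7.35). The shares were 6.81% and 0.997%, 6.83-fold lower (5.16 to 9.17), without nuclei with other markers. The number of nuclei was lower as well as the share, although the cKO library held more nuclei in all. Among nuclei that met the granule conditions of the rule (Pax6 or Zic1, few glial and few Gad UMIs), the shares were 12.3% and 3.26%, 3.79-fold lower (2.94 to 4.93). Shares of nuclei do not tell fewer progenitors apart from progenitors with less RNA of the rule's genes.

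The closest nuclei on either side of these in the lineage were set beside them. Dividing progenitors, with 3 or more mitotic UMIs and the other conditions kept, numbered 178 (4.66%) in control and 50 (0.804%) in cKO, 5.80-fold lower (4.22 to 8.11). Granule nuclei with none of the 3 progenitor genes and at least 2 UMIs of Neurod1 and Cntn2 numbered 335 (8.78%) and 344 (5.53%), 1.59-fold lower (1.36 to 1.85). Over granule nuclei alone those without progenitor genes had a ratio of 0.941 (0.807 to 1.10), whose interval holds 1. Both progenitor groups were thus low in cKO to a like extent, at intervals that overlap, while the group without progenitor genes was low by less.

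**Figure D2:**
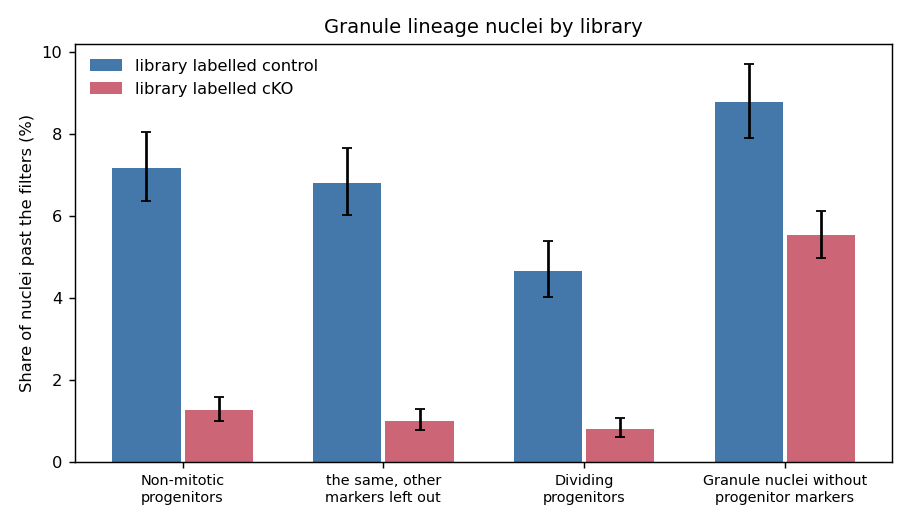
Bars give the share of all nuclei past the filters in each library, in percent, with exact Clopper-Pearson 95% intervals. Non-mitotic progenitors stood at 7.18% and 1.27% and dividing progenitors at 4.66% and 0.804%, while granule nuclei without progenitor markers stood at 8.78% and 5.53%.

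Within the rule, single conditions removed unequal shares. Of 3816 control nuclei 707 passed the condition on Gli2, Fgfr4 and Sfrp1, 664 that on Pax6 and Zic1, 430 the mitotic one, 290 the glial one and 274 the last. Of 6217 cKO nuclei the numbers were 472, 409, 300, 93 and 79, so the glial condition took most of what was left in cKO. Nuclei with many Slc1a3 or Ptprz1 UMIs can hold Gli2 and Sfrp1 too, as these are also genes of astroglia.

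The genes of the rule are given as a description, with no test. Gli2 had 720 UMIs in 243 of 274 control nuclei, or 625 CPM, and 192 UMIs in 68 of 79 cKO nuclei, or 572 CPM. Sfrp1 had 191 UMIs (166 CPM) and 66 (197 CPM). Fgfr4 had 71 UMIs in 45 control nuclei and 3 UMIs in 2 cKO nuclei, and with the marked nuclei left out 68 UMIs and 0. By 3 counts, a count of 0 in 62 nuclei allows a share of up to 4.84% with a UMI. The nuclei of cKO therefore met the rule through Gli2 and Sfrp1 and hardly through Fgfr4. Pax6 had 597 and 528 CPM and Zic1 447 and 474 CPM, close in both libraries.

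Nuclei just inside the rule's threshold had 2 UMIs over the 3 progenitor genes, and those just outside had 1. Among nuclei without other markers 95 control and 30 cKO nuclei stood just inside and 207 and 104 just outside. Btbd11 had a ratio of cKO to control of 0.228 just inside, 0.168 just outside and 0.0750 at 3 or more UMIs, and Ptch1 had 1.13, 1.18 and 1.77.

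The targeted gene was read in every library. Tox3 (ENSMUSG00000043668, chromosome 8, 90247040 to 90348343, minus strand, GRCm38), a nuclear protein of the high mobility group box family, had 271 UMIs in 134 of 274 control nuclei, or 235 CPM, and 128 UMIs in 59 of 79 cKO nuclei, or 382 CPM. The ratio of cKO to control was 1.62 (1.30 to 2.01) in all nuclei and 2.06 (1.62 to 2.62) without nuclei with other markers. Tox3 UMIs were thus higher in the library labelled cKO and not lower. Counts per gene do not show whether the floxed segment was read, so they did not check the genotype, and cKO stands for the library's label throughout.

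Across genes, those with at least 50 UMIs over both libraries were compared by CPM, the genes of the rule left out, and a gene was called where its ratio was 2-fold or more and its exact interval left out 1. Of 5898 genes tested in all nuclei, 256 (4.34%) were called lower in cKO and 211 (3.58%) higher. Without nuclei with other markers, 5342 genes could be tested, of which 223 (4.17%) were lower and 116 (2.17%) higher. Both settings called 145 of the same genes lower, 56.6% of the 256 and 65.0% of the 223. They called 60 of the same genes higher, 28.4% of the 211 and 51.7% of the 116. A larger part of the lower calls than of the higher calls was thus kept when the marked nuclei were taken out. This follows in part from the design and was not read as a trait of the genes. The marked nuclei held 34.2% of the UMIs in cKO but 8.36% in control. The limit of 50 UMIs is also met more easily by a gene high in control, which held more UMIs.

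The text of the study names 13 genes enriched in granule progenitors, which are part of a longer list that was not used here. Of these, 8 had enough UMIs to be tested, and 7 were called lower and none higher, against 4.34% of all genes tested. Their median log2 ratio was -2.39, against -0.07 over all genes tested, and -2.32 against -0.01 without nuclei with other markers. The study named these genes with their levels in Tox3 mutants in view, so the count is not independent evidence of its direction. Btbd11 (ENSMUSG00000020042, chromosome 10, 85386814 to 85660292, plus strand), which encodes a protein with ankyrin repeats and a BTB domain, had 936 UMIs in 195 control nuclei, or 812 CPM. In cKO it had 27 UMIs in 17 nuclei, or 80.5 CPM, which was 10.1-fold lower (6.89 to 15.4) and 7.79-fold lower (5.25 to 12.1) without nuclei with other markers. Of all genes tested in all nuclei, it had the lowest upper limit of the ratio.

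Kctd8 (chromosome 5, 69109285 to 69341679, minus strand), an auxiliary subunit of GABA-B receptors, had 1324 UMIs in 220 control nuclei, or 1149 CPM, and 79 UMIs in 20 cKO nuclei, or 236 CPM. It was 4.88-fold lower (3.89 to 6.20), and 3.55-fold lower (2.82 to 4.52) without nuclei with other markers. Ntn1 (chromosome 11, 68209364 to 68400823, minus strand), the secreted guidance cue netrin 1, had 450 UMIs (391 CPM) in 170 control nuclei and 29 UMIs (86.5 CPM) in 24 cKO nuclei, 4.52-fold lower (3.10 to 6.82). Both genes were detected in most control nuclei and in a minority of cKO nuclei.

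Sema7a (chromosome 9, 57940112 to 57962865, plus strand), a membrane-anchored semaphorin, had 194 UMIs (168 CPM) in control and 10 UMIs (29.8 CPM) in cKO, 5.65-fold lower (3.01 to 12.0). Barhl1 (chromosome 2, 28907679 to 28916668, minus strand), a homeodomain factor that granule neurons need to migrate and survive, had 151 UMIs (131 CPM) and 6 UMIs (17.9 CPM), 7.33-fold lower (3.29 to 20.3). Col18a1 (chromosome 10, 77052178 to 77166548, minus strand), a basement membrane collagen, had 152 UMIs (132 CPM) and 6 UMIs (17.9 CPM), 7.38-fold lower (3.31 to 20.4). Rnf220, a ubiquitin ligase, had 185 UMIs (161 CPM) and 11 UMIs (32.8 CPM), 4.90-fold lower (2.67 to 9.98). All 4 intervals left out 1 and still did so without nuclei with other markers, where the folds were 5.73, 5.23, 5.30 and 4.76. Tcf20, a chromatin-associated coregulator, was the exception among the 8, with 275 and 155 CPM and a 1.77-fold lower level (1.32 to 2.43) that stayed under the 2-fold limit.

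The other 5 genes of that list were too sparse to test. Atoh1 had 5 UMIs in control and 0 in cKO, and the interval of its ratio reached 3.75. Fgf8 had 9 and 0, Cyp11a1 14 and 0, Pgf 29 and 4 and Slc1a5 35 and 2. By 3 counts, a count of 0 in 79 nuclei allows a share of up to 3.80% with a UMI. A difference in Atoh1 was not detectable at this depth within these nuclei.

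**Figure D3:**
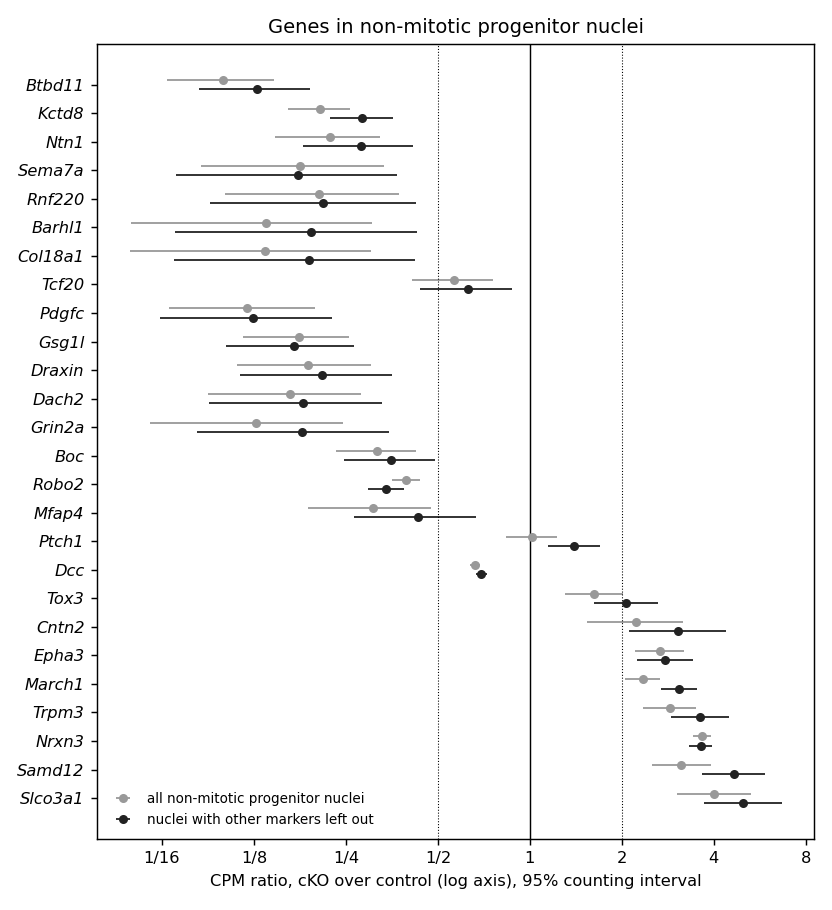
Points give the CPM ratio of cKO to control on a log axis, with exact 95% counting intervals, for all non-mitotic progenitor nuclei (grey, 274 and 79) and for those without other markers (black, 260 and 62). Dotted lines mark 2-fold. Btbd11, at 0.0991 and 0.128, and Pdgfc, at 0.119 and 0.124, stand farthest to the left, and Slco3a1, at 4.0 and 4.98, stands farthest to the right.

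UMIs of free RNA can lie in any droplet, so the shares of nuclei with a UMI were set beside those of nuclei with 2 or more Csf1r UMIs, a receptor of microglia, which should lack granule genes. There were 45 such nuclei in control and 110 in cKO, at median depths of 3207 and 2971.5 UMIs. Ntn1 was seen in 30.4% of cKO progenitor nuclei and in 0.909% of Csf1r nuclei of that library. Btbd11 was seen in 21.5% and 11.8%, Kctd8 in 25.3% and 14.5%, and Sema7a in 12.7% and 3.64%. Barhl1, with 6.33% and 5.45%, and Rnf220, with 13.9% and 14.5%, were at the level of the Csf1r nuclei in cKO, so their UMIs there are read as background. In control, Barhl1 was seen in 39.8% of progenitor nuclei and 8.89% of Csf1r nuclei, and Rnf220 in 31.4% and 11.1%.

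Whether a few nuclei or most of them were low in these genes was read from the sum of the 13 genes in each nucleus. Over all nuclei it had a median of 12 UMIs in control (quartiles 6 and 19.8, highest 67) and of 2 in cKO (quartiles 1 and 4, highest 17). To compare at 1 depth, each nucleus was thinned to 1500 UMIs, which left out no progenitor nucleus. Without nuclei with other markers, 138 of 260 control nuclei (53.1%, 46.8 to 59.3%) and 3 of 62 cKO nuclei (4.84%, 1.01 to 13.5%) then held 5 or more UMIs of the 13 genes. None was left in 5.77% of control nuclei (15 of 260, 3.26 to 9.34%) and in 33.9% of cKO nuclei (21 of 62, 22.3 to 47.0%). Sums under 5 were thus found in most cKO nuclei and also in many control nuclei, so the distributions overlapped. The study named these genes with their levels in Tox3 mutants in view, so the lower sums are not independent evidence of direction.

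Dividing progenitors looked alike in this sum, and granule nuclei without progenitor genes did not. Of dividing progenitors, 51.1% in control (91 of 178) and 4.0% in cKO (2 of 50) held 5 or more thinned UMIs. In granule nuclei without progenitor genes the shares were 5.97% and 1.74%. In Csf1r nuclei they were 1 of 45 and 0 of 107, with 3 of the 110 cKO nuclei left out as too shallow. The cKO progenitor nuclei, with median depths of 3124.5 UMIs and 4472.5 UMIs in the non-mitotic and dividing groups, sat nearer the granule nuclei without progenitor genes than the control progenitors by this count.

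**Figure D4:**
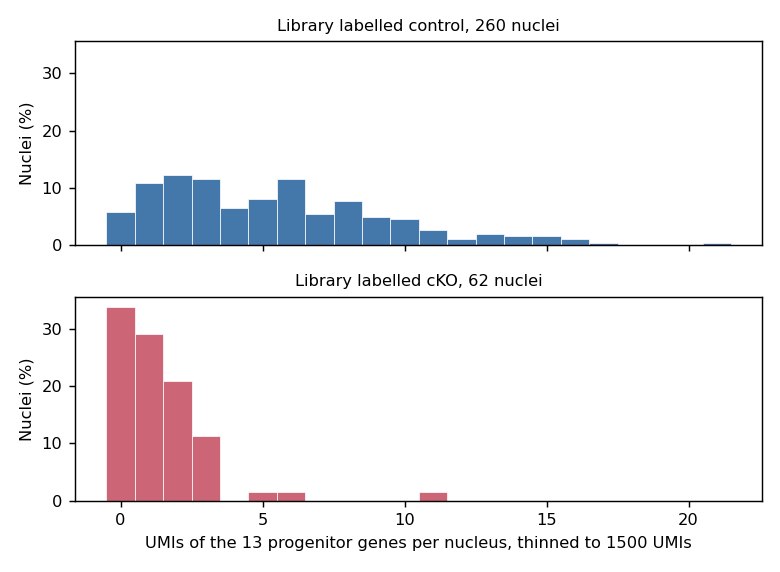
Bars give the percent of non-mitotic progenitor nuclei, those with other markers left out, at each sum of UMIs over the 13 progenitor genes after thinning to 1500 UMIs. In control 53.1% of 260 nuclei reach 5 UMIs and in cKO 4.84% of 62 do.

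The genes farthest below 1 outside that list included a growth factor and receptor subunits. Pdgfc, a platelet-derived growth factor ligand, had 433 UMIs in 165 control nuclei (376 CPM) and 15 UMIs in 10 cKO nuclei (44.7 CPM), 8.40-fold lower (5.04 to 15.1). Gsg1l, an auxiliary subunit of AMPA receptors, had 549 UMIs (476 CPM) and 28 UMIs (83.5 CPM), 5.71-fold lower (3.91 to 8.67). Dach2, a dachshund family cofactor, had 293 UMIs (254 CPM) and 14 UMIs (41.7 CPM), 6.09-fold lower (3.57 to 11.3). Grin2a, a subunit of NMDA receptors, had 244 UMIs (212 CPM) and 9 UMIs (26.8 CPM), 7.89-fold lower (4.09 to 17.5). Without nuclei with other markers these 4 genes were 8.06-fold, 5.92-fold, 5.53-fold and 5.57-fold lower, and each was called lower again.

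Several others had few or no UMIs in cKO. They met the limit of 50 UMIs through control, which held 1152185 UMIs against 335424 in cKO. The limit thus admits a gene missing from cKO at a lower CPM than a gene missing from control, so such genes are found more readily on this side. Invs, which encodes the ciliary protein inversin, had 68 UMIs in 55 control nuclei and 0 in cKO, at least 6.6-fold lower if 3 counts are set for the 0. The exact interval, which also takes in the error of the control count, ran to a ratio of 0.191. Kcnh5, a voltage-gated potassium channel gene, had 50 UMIs in 35 control nuclei and 0 in cKO, at least 4.85-fold lower on the same terms, with an interval that ran to a ratio of 0.263. Eln, the gene of elastin, had 101 UMIs (87.7 CPM) and 2 UMIs (5.96 CPM), a ratio of 0.0680 (0.00813 to 0.252). Shb, an adaptor with an SH2 domain, had 141 UMIs (122 CPM) and 4 (11.9 CPM), 10.3-fold lower (3.92 to 38.2). Chrna3, a nicotinic receptor subunit, had 73 UMIs and 1, a ratio of 0.0471 (0.00118 to 0.271). The long noncoding Gm12082, which led the genes that mark these nuclei, had 149 UMIs and 5, 8.68-fold lower (3.64 to 27.1). The gene that best marked the nuclei by the lower of both libraries' folds was therefore among the lowest in cKO. Its fold over other nuclei in cKO rests on those 5 UMIs. Without nuclei with other markers all were called lower again except Kcnh5, whose 49 UMIs were too few to test, and Invs was then at least 4.60-fold lower.

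The promoters of 4 of the lower genes are shown because basic helix-loop-helix factors such as Atoh1 bind E-boxes, with the letters CANNTG. Btbd11, Kctd8, Barhl1 and Draxin were chosen after their values were seen. Each line gives the 250 bases before the start of the gene from RefSeq (build GRCm38.p6), 5′ to 3′ on the gene's strand, with E-boxes in capitals. The windows were chr10:85386564-85386813 on the plus strand for Btbd11, chr5:69341710-69341959 on the minus strand for Kctd8, chr2:28916669-28916918 on the minus strand for Barhl1 and chr4:148130699-148130948 on the minus strand for Draxin.
Btbd11: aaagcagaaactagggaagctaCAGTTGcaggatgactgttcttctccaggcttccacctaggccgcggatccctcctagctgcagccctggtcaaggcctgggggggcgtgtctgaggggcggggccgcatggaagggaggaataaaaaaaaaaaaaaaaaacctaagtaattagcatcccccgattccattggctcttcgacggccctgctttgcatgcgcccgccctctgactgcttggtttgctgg
Kctd8: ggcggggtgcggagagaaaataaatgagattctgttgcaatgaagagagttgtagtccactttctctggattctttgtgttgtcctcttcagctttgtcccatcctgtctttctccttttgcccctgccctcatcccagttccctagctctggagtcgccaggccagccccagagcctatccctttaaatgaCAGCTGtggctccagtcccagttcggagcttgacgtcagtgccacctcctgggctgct
Barhl1: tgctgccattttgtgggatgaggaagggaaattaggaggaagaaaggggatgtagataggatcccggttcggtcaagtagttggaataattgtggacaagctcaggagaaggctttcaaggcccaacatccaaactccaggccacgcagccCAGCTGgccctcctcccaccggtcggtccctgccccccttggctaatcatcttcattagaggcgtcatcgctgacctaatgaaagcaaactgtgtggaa
Draxin: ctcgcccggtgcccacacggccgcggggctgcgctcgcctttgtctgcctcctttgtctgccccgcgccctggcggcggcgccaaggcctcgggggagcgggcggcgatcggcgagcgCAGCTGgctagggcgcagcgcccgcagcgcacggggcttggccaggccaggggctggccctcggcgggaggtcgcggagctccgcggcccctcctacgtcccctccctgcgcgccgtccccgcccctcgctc
Kctd8, Barhl1 and Draxin held 1 E-box each with the letters CAGCTG, and Btbd11 held 1 with CAGTTG. Of the 145 genes lower in both settings, 105 had a window in RefSeq, 66.7% of them with an E-box and 21.9% with CAGCTG. Of all 4086 genes tested in both settings that had one, the shares were 58.8% and 14.7%, and of the 36 with a window among the 60 genes higher in both, 75.0% and 16.7%. Of all 27025 genes with a window, 69.3% held an E-box and 14.7% CAGCTG. Both strands were searched, both motifs read the same on either strand, and CAGCTG is also an E-box. The letters describe these windows and do not show that a factor binds there.

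Genes of the Sonic hedgehog pathway were read by role. Boc, a co-receptor of the ligand, had 532 UMIs in 194 control nuclei (462 CPM) and 49 in 33 cKO nuclei (146 CPM), 3.16-fold lower (2.36 to 4.33). Ptch1, the receptor and a target of the pathway, had 482 and 142 UMIs and a ratio of 1.01 (0.833 to 1.22), or 1.40 (1.15 to 1.69) without nuclei with other markers, under the 2-fold limit. Smo, the signal transducer, had 68.6 and 59.6 CPM, with a ratio of 0.870 (0.504 to 1.43). Gli1, a target, had 44 UMIs and 8, with a ratio of 0.625 (0.254 to 1.34). Boc was thus called lower, while Ptch1 and Gli1 were not called. The interval of Gli1 is wide and holds both 1 and a 2-fold lower level.

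Of the 20 genes in that list 10 could be tested, with 2 called lower (20%, against 4.34% of all genes tested) and 0 higher in all nuclei and a median log2 ratio of -0.43. The second was Ccnd1, a cyclin of early G1, with 71.2 and 32.8 CPM and a ratio of 0.461 (0.221 to 0.868), not called without nuclei with other markers at 0.675 (0.323 to 1.27). In that setting 2 were lower (20%, against 4.17%) and 1 higher (10.0%, against 2.17%), with a median of -0.07. Gli3, mostly a repressor of the pathway, was lower there at 0.478 (0.200 to 0.989), and Sufu, which holds Gli factors in check, was higher at 2.29 (1.62 to 3.19), with 107 and 245 CPM.

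Guidance genes were called in both directions. Of 34 such genes 25 could be tested in all nuclei, and 2 were lower (8%, against 4.34% of all genes tested) and 5 higher (20%, against 3.58%). Without nuclei with other markers 20 could be tested, and 3 were lower (15.0%, against 4.17%) and 3 higher (15.0%, against 2.17%). Draxin, Robo2, Epha3 and Dcc are given over all nuclei. Draxin, a secreted guidance protein that binds Dcc, had 330 UMIs in 161 control nuclei (286 CPM) and 18 in 13 cKO nuclei (53.7 CPM), 5.34-fold lower (3.32 to 9.12). Robo2, a receptor for Slit proteins, had 3265 UMIs (2834 CPM) and 374 UMIs (1115 CPM), 2.54-fold lower (2.28 to 2.84), and it kept a UMI in 91.6% and 67.1% of nuclei. Slit2, a ligand of Robo2, was lower without nuclei with other markers, at 182 and 90.6 CPM (0.498, 0.298 to 0.791), but not with them (0.876, 0.652 to 1.16).

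On the other side stood Epha3, an ephrin receptor, with 230 CPM (265 UMIs) in control and 611 CPM (205 UMIs) in cKO, a ratio of 2.66 (2.20 to 3.20). Sema5a and Slit3 were higher without nuclei with other markers, at 2.63 (1.86 to 3.69) and 2.08 (1.57 to 2.73). Dcc, the netrin receptor, was the gene of its list with most UMIs, 16901 in control and 3257 in cKO. Its level of 14669 and 9710 CPM had a ratio of 0.662 (0.637 to 0.687), whose interval lay below 1 but which stayed under the 2-fold limit.

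Most matrix and adhesion genes were not called, and those called were mostly lower. The summed level of the 30 genes had a ratio of 1.23 (1.17 to 1.29) in all nuclei. Without nuclei with other markers it was 0.810 (0.752 to 0.871). In all nuclei 20 of 30 could be tested, and 4 were lower (20%, against 4.34% of all genes tested) and 1 higher (5%, against 3.58%). With marked nuclei left out 19 of 30 could be tested, and 4 were lower (21.1%, against 4.17%) and 0 higher, with a median log2 ratio of -0.32. Beside Col18a1 these were Mfap4, with 214 and 65.6 CPM in all nuclei and a ratio of 0.306 (0.188 to 0.474), Fbln2, a fibulin of basement membranes, with 59 UMIs and 1 in all nuclei, and Sdk2, an adhesion molecule of synaptic partners, with 67 UMIs and 3. Frem1, of the extracellular matrix, was the gene called higher, at 6.70 (3.81 to 12.1). Without marked nuclei it had 11 and 15 UMIs, too few to be tested, at a ratio of 6.52 (2.80 to 15.7).

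Few transcription factors of the granule lineage were called besides Barhl1. Of 29 such genes 16 could be tested without nuclei with other markers, and Barhl1 was lower and Tox3 higher, each 6.25% against 4.17% and 2.17% of all genes tested. Nfib, which drives granule neuron maturation, had 4234 UMIs in control and 1319 in cKO and a ratio of 1.07 (1.01 to 1.14). Meis1, a homeodomain factor of the lineage, had 0.638 (0.561 to 0.723) in all nuclei and 0.842 (0.735 to 0.960) without marked nuclei. Zic2 had 39 and 16 UMIs (1.41, 0.735 to 2.58). The broad factors of the lineage that were tested were thus not called lower, unlike 7 of the 13 progenitor genes.

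Few genes of early postmitotic granule neurons were called. Of 20 such genes 18 could be tested, and 1 was higher in all nuclei (5.56%, against 3.58% of all genes tested) and 2 without marked nuclei (11.1%, against 2.17%). None was lower, 7 of the 18 had a ratio below 1 in all nuclei, and the medians were 0.20 and 0.19 on the log2 scale, while the summed level, which Dcc leads, had a ratio of 0.854 (0.831 to 0.877) and of 0.917 (0.889 to 0.946). Cntn2 had 82 UMIs in 54 control nuclei (71.2 CPM) and 53 in 26 cKO nuclei (158 CPM), a ratio of 2.22 (1.54 to 3.17), and 3.05 (2.10 to 4.39) without marked nuclei. Cntn2 was not called, at 1.39, among nuclei that held UMIs of Y-linked genes but none of Xist. Plxna2, a plexin that receives semaphorin signals, was 2.20 (1.37 to 3.47) without marked nuclei. Neurod1 had 86.8 and 77.5 CPM and a ratio of 0.893 (0.557 to 1.39).

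A UMI of Neurod1 or Cntn2 was found in 39.6% of control nuclei (103 of 260) and 56.5% of cKO nuclei (35 of 62), without marked nuclei. Control and cKO were compared within both kinds. Btbd11 had a ratio of 0.157 (0.0848 to 0.267) in nuclei with a UMI of either gene and of 0.111 (0.0550 to 0.200) in those with none, and Kctd8 had 0.280 (0.192 to 0.397) and 0.304 (0.218 to 0.413). Nrxn3 had 3.35 (2.99 to 3.75) and 3.57 (3.07 to 4.13). The intervals of Btbd11, Kctd8 and Nrxn3 overlapped between both kinds. Tox3 had 3.20 (2.26 to 4.52) and 1.39 (0.947 to 2.01), and Lingo2 had 0.832 (0.541 to 1.24) and 1.80 (1.19 to 2.66). A nucleus with no UMI of these sparse genes may still express them, so the split does not sort nuclei by state. Whether the larger share of cKO nuclei with an early neuron marker bears on the differences was not tested. Boc had 0.306 (0.168 to 0.517) and 0.415 (0.259 to 0.634).

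Later granule neuron genes had calls in both directions. Of 24 such genes 16 could be tested in either setting. In all nuclei 1 was higher (6.25%, against 3.58% of all genes tested) and 2 were lower (12.5%, against 4.34%). Without marked nuclei 1 was higher and 1 lower, each 6.25% against 2.17% and 4.17% of all genes tested. Rbfox1, a splicing regulator, was higher at 2.30 (2.03 to 2.60), with 750 and 1726 CPM, and Cbln1, a synapse organiser secreted by granule cells, was lower at 0.393 (0.140 to 0.898), with 73 and 6 UMIs. Lingo2 was called higher in all nuclei at 2.04 (1.69 to 2.45) but not without marked nuclei at 1.22 (0.912 to 1.61).

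Few genes of the cell cycle were called. Of 43 S phase genes 25 could be tested in all nuclei, none was called and the median log2 ratio was -0.03. Over the 22 that could be tested without marked nuclei 1 was called lower (4.55%, against 4.17% of all genes tested), and the median was 0.20. Mcm6, part of the replicative helicase, had 135 and 101 CPM and a ratio of 0.753 (0.504 to 1.10). None of the 14 G2/M genes tested was called. E2f5 was the 1 gene of the 10 tested for G1 and cycle exit to be called (10%, against 4.34% of all genes tested). It was lower at 0.412 (0.144 to 0.962) on 50 and 6 UMIs. E2f5 lost this call in 9 of 16 settings, among them that without marked nuclei at 0.531 (0.165 to 1.33), and reversed in 1. Mitotic genes were limited by the rule, so these lists describe what the rule left.

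Of 30 cilium genes 18 could be tested in all nuclei and 0 were called, with a median of -0.20. Without marked nuclei 1 of 16 (6.25%) was called, against 4.17% of all genes tested. This was Cep290, of the ciliary transition zone, lower at 0.435 (0.203 to 0.830). Among 32 channel and receptor genes, 6 were called higher (18.8%, against 3.58% of all genes tested) and 1 lower (3.12%, against 4.34%) in all nuclei, and 0 were called among the 28 that could be tested without marked nuclei. Of 30 genes of the Wnt, FGF, Notch and BMP pathways, 2 of 11 tested (18.2%, against 4.34% of all genes) were lower in all nuclei, Bmpr1b at 0.421 (0.263 to 0.644) and the chemokine receptor gene Cxcr4 on 49 and 4 UMIs at 0.280 (0.0735 to 0.765), and neither was called without marked nuclei.

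The 12 genes highest in cKO over all nuclei, by the lower limit of the ratio, were Brinp3, Cdh9, Mgat4c, Slc1a6, Cntnap5b, Calb1, Spock3, Lrrc4c, Shisa6, Car8, Frem1 and Dab1. Each of the 12 had more of its cKO UMIs in the nuclei with other markers than in the rest. Several, such as Calb1, Car8 and the glutamate transporter gene Slc1a6, are known from Purkinje cells. Brinp3 had 117 UMIs in 26 control nuclei and 330 in 13 cKO nuclei, a ratio of 9.69 (7.82 to 12.1). Of its cKO UMIs 324 lay in nuclei with other markers, and 96 in 1 nucleus, and without those nuclei the ratio was 1.15 (0.385 to 2.87). Calb1, a calcium buffer of Purkinje cells, went from 7.04 (4.77 to 10.6) to 1.06 (0.262 to 3.23), Car8 from 5.06 (4.11 to 6.25) to 1.86 (0.657 to 4.67) and Dab1, the intracellular adaptor of reelin, from 4.10 (3.64 to 4.62) to 1.05 (0.695 to 1.53). Calb1 and Car8 were also used to mark those nuclei, which fixes part of their difference. Mgat4c, a glycosyltransferase gene, had no such part in the marking and went from 6.45 (5.40 to 7.71) to 0.386 (0.181 to 0.734). Shisa6, an AMPA receptor partner, and Frem1 stayed higher without marked nuclei, at 3.52 (1.64 to 7.41) and 6.52 (2.80 to 15.7), on UMIs too few to be tested.

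Of the 13 Purkinje cell genes listed 9 could be tested in all nuclei, and 6 were higher (66.7%, against 3.58% of all genes tested) and 0 lower. The summed level of the 13 was 3582 CPM in control and 7221 CPM in cKO. Without marked nuclei the summed level was 2592 and 2909 CPM. Of the 7 genes that could be tested there, 0 were higher and 1 was lower (14.3%, against 4.17% of all genes tested). This was Rora, a nuclear receptor gene, at 0.489 (0.391 to 0.606) on 909 and 93 UMIs. The calls on these genes in all nuclei moved with the marked nuclei. Without marked nuclei 1 gene of the list was at 0 in control and 2 were at 0 in cKO. As 6 genes of the marking are in the list, part of the drop in the summed level is fixed by it.

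Some genes were higher in cKO in both settings. Nrxn3 (chromosome 12, 88722876 to 90334935, plus strand), a presynaptic neurexin, had 1659 UMIs in 187 of 274 control nuclei (1440 CPM) and 1765 in 76 of 79 cKO nuclei (5262 CPM), a ratio of 3.65 (3.42 to 3.91) and of 3.62 (3.31 to 3.96) without marked nuclei. Slco3a1, an organic anion transporter gene, had 97 UMIs in 59 nuclei (84.2 CPM) and 113 in 47 nuclei (337 CPM), a ratio of 4.0 (3.02 to 5.30) and of 4.98 (3.72 to 6.68). Samd12, which encodes a protein with a sterile alpha motif, had 170 UMIs (148 CPM) and 155 UMIs (462 CPM), a ratio of 3.13 (2.50 to 3.92) and of 4.65 (3.67 to 5.90). Each was found in a larger share of cKO than of control nuclei, at 96.2% and 68.2% for Nrxn3, 59.5% and 21.5% for Slco3a1 and 60.8% and 27.7% for Samd12. In Csf1r nuclei the shares in cKO and control were 61.8% and 53.3% for Nrxn3, 10.9% and 6.67% for Slco3a1 and 13.6% and 15.6% for Samd12.

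March1, a membrane-bound ubiquitin ligase, had ratios of 2.34 (2.05 to 2.66) and 3.07 (2.68 to 3.52), and Trpm3, a cation channel, of 2.87 (2.34 to 3.51) and 3.61 (2.90 to 4.49). Onecut2, a transcription factor, had 33 and 39 UMIs (4.06, 2.49 to 6.66). Nxph1, a ligand of neurexins, had 34 and 45 UMIs (4.55, 2.85 to 7.32), and Syndig1, an AMPA receptor partner, had 42 and 46 UMIs (3.76, 2.42 to 5.86). Slc4a4, a bicarbonate transporter, had 30 and 35 UMIs, of which 11 in cKO lay in 1 nucleus. March1, Trpm3 and Syndig1 each lost the call in 2 of 16 settings, down to 1.69, 1.20 and 1.915. Both settings loosened the rule, to a Gli2, Fgfr4 and Sfrp1 sum of 1 or more or to a rule without Gli2. Onecut2 lost the call in 1 setting and Slc4a4 in 5, down to 1.32, while Nxph1 kept it in all 16.

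Markers of glia and other cells also differed between the libraries. Without nuclei with other Purkinje or interneuron markers, the 11 astroglial genes summed to 690 CPM in control and 983 CPM in cKO, a ratio of 1.43 (1.22 to 1.66), with 0 and 2 of them at 0. The 8 oligodendrocyte genes summed to 151 and 240 CPM (1.59, 1.15 to 2.19), with 3 at 0 in cKO, the 6 unipolar brush cell genes to 323 and 458 CPM (1.42, 1.12 to 1.77) and the 8 microglial genes to 123 and 159 CPM (1.29, 0.860 to 1.88). The 11 vascular and fibroblast genes stood at 22.7 and 40.8 CPM, the 10 interneuron genes at 120 and 140 CPM and the 6 genes of cerebellar nuclear neurons at 100.4 and 45.3 CPM. Of the genes tested in these lists, Apoe was called higher at 2.15 (1.36 to 3.33). Slc17a6, of the cerebellar nuclear neuron list, was called lower at a log2 ratio of -1.26. The part of these markers in the results was not tested.

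The same genes were read in the dividing progenitors and in granule nuclei without progenitor genes, with the ratio in non-mitotic nuclei without other markers divided by the ratio there. The 3 sets come from the same libraries. Nuclei with other markers were left out of the non-mitotic set only, and what this adds to the contrasts was not tested. For Btbd11 the ratios of cKO to control were 0.0809 (0.0429 to 0.139) in dividing progenitors, 0.128 (0.0826 to 0.191) in non-mitotic ones and 0.809 (0.651 to 1.00) in granule nuclei without progenitor genes. The non-mitotic ratio was 0.159 times (0.101 to 0.249) that of the granule nuclei, and its comparison with dividing nuclei held 1 (1.59, 0.805 to 3.12). Kctd8 had 0.227, 0.282 and 0.657, and the non-mitotic ratio was 0.430 times (0.334 to 0.552) that of granule nuclei.

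Pdgfc had a lower ratio in the non-mitotic nuclei than in both other kinds. Its ratios were 0.422 (0.307 to 0.569) in dividing, 0.124 (0.0615 to 0.224) in non-mitotic and 0.978 (0.759 to 1.26) in granule nuclei without progenitor genes, and the non-mitotic ratio was 0.294 times (0.151 to 0.574) that of dividing nuclei. Gsg1l likewise had 0.358, 0.169 and 0.563, with 0.471 times (0.271 to 0.820) the dividing ratio, and Boc had 0.546, 0.352 and 0.778, with 0.644 times (0.428 to 0.969). Ntn1 went the other way, with 0.0995 in dividing and 0.279 in non-mitotic nuclei, 2.81 times (1.34 to 5.90). These intervals left out 1, in both directions, by counting error alone. Pdgfc, Gsg1l and Boc here, and Nrxn3, Slco3a1 and Samd12 below, were named for ratios far from 1 in the non-mitotic nuclei. A ratio nearer 1 in other nuclei follows in part from that choice, so these contrasts do not show a trait of the non-mitotic nuclei.

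Among genes higher in cKO, Nrxn3 had ratios of 7.09 (6.49 to 7.76) in dividing, 3.62 in non-mitotic and 1.45 (1.41 to 1.50) in granule nuclei without progenitor genes, with 0.510 times (0.450 to 0.579) the dividing ratio and 2.49 times (2.27 to 2.74) that of granule nuclei. In control its level was 796, 1084 and 3864 CPM in this order, and in cKO 5646, 3923 and 5609 CPM. Slco3a1 had 4.25, 4.98 and 0.927, and the non-mitotic ratio was 5.38 times (3.90 to 7.42) that of granule nuclei. Samd12 had 5.66, 4.65 and 1.56, and Epha3 5.57, 2.78 and 2.29. In cKO the level of Nrxn3 in dividing progenitors was thus near that of granule nuclei, while that in non-mitotic ones was below it. In control both progenitor levels were below that of granule nuclei.

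**Figure D5:**
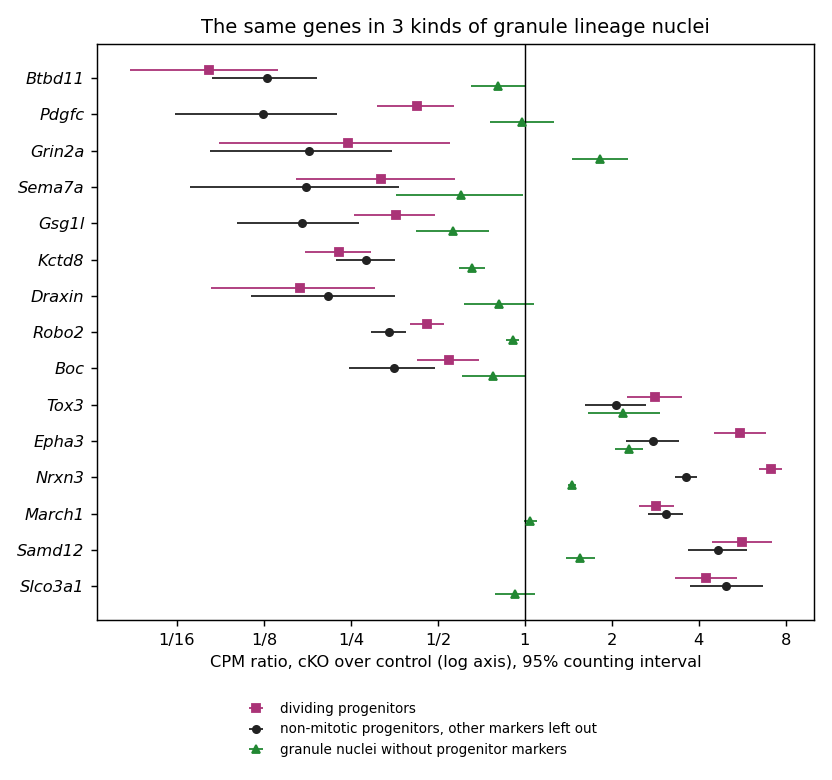
Points give the CPM ratio of cKO to control on a log axis, with exact 95% counting intervals, in dividing progenitors (squares, 178 and 50 nuclei), non-mitotic progenitors without other markers (circles, 260 and 62) and granule nuclei without progenitor genes (triangles, 335 and 344). Nuclei with other markers were left out of the non-mitotic set only. Pdgfc has 0.422, 0.124 and 0.978, and Nrxn3 has 7.09, 3.62 and 1.45.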

How the data were processed

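Nuclei from 12 pooled frozen cerebella a group were captured with a 10x Genomics 3′ kit. Per the labels and the study's methods, the authors counted reads with Cell Ranger 7.0.1 on mm10 and deposited raw UMI counts per gene and nucleus, without normalisation. Free RNA was not removed, so 1 UMI in a nucleus need not come from it. Members were found by the rule, UMIs were summed over members per library, and CPM were taken on those sums, since counts of single nuclei are sparse. Shares carry Clopper-Pearson intervals, ratios exact conditional binomial ones, and ratios of ratios log-normal ones, all 95% and for counting error only. Only the interval of the gene ratio and the call were tested on simulated data. Those data were independent counts per gene, so UMIs that gather in single nuclei were not covered. A count of 0 was set against 3 counts. With 1 library a group no p-value was computed. Doublets were not removed in the main values. An alternative removed the top Scrublet scores (scanpy 1.11.5). Genes had to reach 50 UMIs over both libraries. Depth over members was 1152185 UMIs in control and 335424 in cKO. Sequences came from RefSeq (GRCm38.p6) and coordinates from GENCODE on GRCm38. The members and the 22 lists were chosen with earlier results of these data known. Named were the 12 genes farthest from 1 on each side, in each list the 2 with most UMIs and the 2 farthest from 1, the 13 study genes, Tox3 and the rule genes, and the 12 that lead the members. Distance from 1 was taken at the interval limit nearer 1, and not at the ratio. Slit2, Epha3, Sema5a, Slit3, Plxna2, Rbfox1, Fbln2, Sdk2, Gli3, Ccnd1, Zic2, Gli1 and Neurod1, the genes read without nuclei with other markers and the thinning with its limit of 5 UMIs were chosen after values were seen. The planned background of nuclei with microglial UMIs included P2ry12, which other nuclei carried, so nuclei with 2 or more Csf1r UMIs served instead. Computations used Python 3.11.15, numpy 2.4.6, scipy 1.17.1 and pandas 2.3.3.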

Additional observations from a re-analysis of the deposited data

Results flagged for a closer look

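Grin2a and Dlgap2 lay on opposite sides of 1 in 2 kinds of granule nuclei, and with 1 library a group the difference between the kinds was not tested beyond its counting interval. Grin2a had a ratio of cKO to control of 0.179 (0.0810 to 0.346) in non-mitotic progenitors without other markers and 1.82 (1.46 to 2.28) in granule nuclei without progenitor genes. In those granule nuclei its level was 73.5 CPM in control and 134 CPM in cKO, against 227 and 40.8 CPM in the progenitors. Dlgap2, a scaffold protein of the postsynaptic density, had 0.146 (0.0467 to 0.347) in the progenitors, on 164 and 5 UMIs, and 1.43 (1.05 to 1.96) in the granule nuclei. Over all progenitor nuclei Dlgap2 had 0.363 (0.213 to 0.583) on 180 and 19 UMIs, and Grin2a 0.127 (0.0572 to 0.245). Dlgap2 was not called in 3 of 16 settings, at 0.898 without Gli2 in the rule, 0.596 with a sum of 1 or more and 0.570 in nuclei with UMIs of Y-linked genes but none of Xist. The ratio of the ratios was 0.0984 (0.0489 to 0.198) for Grin2a and 0.102 (0.0398 to 0.260) for Dlgap2, by counting error alone. Nuclei with other markers were left out of the progenitors only. Both genes were named for low ratios in the progenitors and picked here for this contrast, so its size follows in part from the choice.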

How the results depend on the processing

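No paired analysis was possible because each group was 1 library, and for the same reason no replicate could be left out. Over 21 alternatives, of which leaving out nuclei with other markers or over 6000 UMIs was chosen after seeing the data, the share stayed lower in cKO and moved beyond its interval from a ratio of 0.177 to 0.260 with a Gli2, Fgfr4 and Sfrp1 sum of 1 or more, 0.279 without Gli2 in the rule, 0.234 in nuclei that held UMIs of Y-linked genes but none of Xist (Y-linked nuclei below) and 0.264 over granule nuclei. The 256 genes called lower, of 5898 tested, became 114 of 2272 after thinning to 2000 UMIs and 159 of 2390 in Y-linked nuclei. They became 404 of 9546 at 20 UMIs, 106 of 3407 at 100 UMIs and 87 of 5898 at 3-fold. The 211 called higher became 89 of 6013 without Gli2, 81 of 2272 after thinning, 131 of 3918 in nuclei with an Xist UMI and 130 of 2390 in Y-linked nuclei. They became 349 of 9546 at 20 UMIs, 117 of 3407 at 100 UMIs and 53 of 5898 at 3-fold. Without nuclei with other markers they became 116 of 5342, and without those over 6000 UMIs 118 of 4805. Fewer nuclei or genes entered most of these, so a lower count need not mean a lower share. The cause was otherwise not tested.

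The S phase median (-0.03) became -0.28 at a sum of 1, -0.26 at a sum of 3, -0.48 without Gli2, 0.10 with 2 UMIs of Pax6 and Zic1, -0.52 with no mitotic UMI, -0.63 in Y-linked nuclei, 0.085 with equal weight per nucleus, 0.20 without nuclei with other markers and 0.24 without deep nuclei. The G1 and exit median (-0.18) became -0.59 with no mitotic UMI, 0.13 after thinning and -0.58 in Y-linked nuclei. Thinning took the hedgehog median to 0.52 and the cilium median to 0.19, and leaving out other markers took the guidance median to -0.31. Thinning reversed Brinp3 (0.614), Car8 (0.682), Cdh9 (0.438), E2f5 (1.19) and Mgat4c (0.667). Mgat4c also reversed without nuclei with other markers (0.386), and Cntnap5b did without deep nuclei (0.962). For named genes, 1710 values kept their call or their lack of one, 115 lost the call and 72 gained it. Another 7 values, all of genes called in the main setting, reversed. Reversal was not counted for genes not called there, and some of these crossed 1. After thinning Ckap5 went from 0.904 to 1.30 and Ctcf from 0.691 to 1.07. Robo2 and Nrxn3 lost theirs without Gli2 in the rule, at 0.532 and 1.84, and Mfap4 after thinning, at 0.634. The causes were not tested. Depth limits genes under 50 UMIs most.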
